A study of Mus musculus with 6 samples.

Results

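The genes described here encode the Wnt ligands, their receptors and the secreted proteins that modulate them. They were taken as probe sets that name 1 gene in the platform's probe table, with a symbol made of Wnt, Fzd, Sfrp, Dkk or Rspo and a number, or with the symbol Lrp5, Lrp6, Wif1 or Frzb. This gave 85 of 45037 probe sets, for 45 of 18193 genes. Messenger RNA was measured in 2 groups of mouse cortex, the S100a10 group from bacTRAP line ES691 and the Glt25d2 group from line DU9, with 3 biological replicates each. In these lines a tagged ribosomal protein is placed in cells that use the driver gene, S100a10 or Glt25d2 (now named Colgalt2), and ribosomes with their messengers are pulled from the lysate by the tag. All mice were untreated and had been backcrossed from FVB to C57BL/6 for 3 to 5 generations; the labels give neither ages nor whether animals were pooled. Both lines were studied as models of cortical pyramidal cells, and by the series text the S100a10 transgene marks some non-neuronal cells too.

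Wnt proteins are lipid-bearing secreted signals. They bind Frizzled receptors, encoded by the Fzd genes, together with the co-receptors Lrp5 or Lrp6, which stabilises beta-catenin and turns on targets through TCF and LEF factors; other Wnt signals act on cell polarity without beta-catenin. Secreted Frizzled-related proteins, Frzb and Wif1 bind Wnt ligands outside the cell, Dickkopf proteins act on the co-receptors, and R-spondins raise the amount of Frizzled at the surface. In the brain the pathway is known for patterning the cortex, for forming the barrier of its blood vessels and for signals between the meninges and the cells below them.

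Promoters of 5 genes are printed because these genes recur below: Wnt6, Fzd7 and Rspo1 are a ligand, a receptor and a modulator that were higher in S100a10 arrays in every fit compared there, and Wnt9a and Wnt3a are genomic neighbours. The sequences are those of RefSeq on build GRCm38.p6 and run 5′ to 3′ on the gene's strand, from 250 bases before to 50 after the annotated start. They lie at chr1:74771642-74771941 (Wnt6, plus strand), chr1:59481897-59482196 (Fzd7, plus), chr4:124986180-124986479 (Rspo1, plus), chr11:59306680-59306979 (Wnt9a, plus) and chr11:59290702-59291001 (Wnt3a, minus). Capitals mark the GC box GGGCGG on either strand, of which some overlap.
Wnt6: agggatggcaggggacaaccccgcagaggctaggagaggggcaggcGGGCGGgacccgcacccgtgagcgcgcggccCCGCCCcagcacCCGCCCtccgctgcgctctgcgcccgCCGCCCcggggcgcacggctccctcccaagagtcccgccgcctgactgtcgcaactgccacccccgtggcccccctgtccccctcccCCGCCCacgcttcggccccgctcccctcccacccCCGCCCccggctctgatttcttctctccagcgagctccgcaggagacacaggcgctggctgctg
Fzd7: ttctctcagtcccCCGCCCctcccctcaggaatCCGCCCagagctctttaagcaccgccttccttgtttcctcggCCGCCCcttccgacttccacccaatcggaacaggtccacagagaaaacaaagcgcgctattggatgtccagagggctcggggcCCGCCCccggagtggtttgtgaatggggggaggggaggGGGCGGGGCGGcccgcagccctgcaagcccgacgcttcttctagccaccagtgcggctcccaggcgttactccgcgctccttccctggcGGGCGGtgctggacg
Rspo1: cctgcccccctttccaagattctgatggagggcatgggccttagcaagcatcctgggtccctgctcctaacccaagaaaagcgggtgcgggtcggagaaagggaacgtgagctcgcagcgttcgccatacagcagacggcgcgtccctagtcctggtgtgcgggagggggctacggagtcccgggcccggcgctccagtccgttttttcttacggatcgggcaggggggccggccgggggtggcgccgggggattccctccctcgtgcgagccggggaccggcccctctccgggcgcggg
Wnt9a: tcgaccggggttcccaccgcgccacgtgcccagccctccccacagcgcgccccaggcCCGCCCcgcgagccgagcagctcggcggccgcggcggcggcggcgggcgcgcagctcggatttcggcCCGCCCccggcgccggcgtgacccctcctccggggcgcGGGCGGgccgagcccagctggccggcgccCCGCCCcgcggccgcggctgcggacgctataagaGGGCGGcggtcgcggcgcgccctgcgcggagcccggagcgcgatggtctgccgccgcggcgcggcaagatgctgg
Wnt3a: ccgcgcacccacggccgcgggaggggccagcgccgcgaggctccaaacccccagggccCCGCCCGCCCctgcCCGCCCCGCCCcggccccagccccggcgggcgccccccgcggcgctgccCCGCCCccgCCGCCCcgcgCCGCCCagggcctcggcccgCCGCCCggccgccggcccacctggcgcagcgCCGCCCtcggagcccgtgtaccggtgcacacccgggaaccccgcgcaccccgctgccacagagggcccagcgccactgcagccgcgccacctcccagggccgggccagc
The window held 6 GC boxes for Wnt6, 7 for Fzd7, 0 for Rspo1, 5 for Wnt9a and 9 for Wnt3a. The table holds 16 promoters for 13 of the 26 genes measured here. Of these, 13 had a GC box (81.3%), against 35.7% of 32851 promoters of the same length, and the median number of CpG pairs was 31.5 against 7. A TCF/LEF motif (CTTTGAA or CTTTGAT, either strand) stood in 2 of the 16, in 1 promoter each of Wnt5b and Wnt11, against 8.65% of all promoters. These matches describe letters in the window only.

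The values are the deposited intensities on a linear scale, and a difference is the log2 value of S100a10 minus Glt25d2 with its standard error and limma's adjusted p. Probe sets with a group mean of at least 50, the limit proposed in the series text, were tested, and a gene is given by its tested probe set with the highest mean log2. Both driver genes went the way the labels state, S100a10 differing by 2.25 and Colgalt2 by -6.51. The 2 groups were not on 1 scale, since the median intensity was 35.5 to 35.8 in S100a10 arrays and 20.4 to 21.3 in Glt25d2 arrays, and the median gene differed by 0.56, by -0.018 with quantile normalization and by -0.21 with arrays centred on their medians. Glt25d2 replicate 3 also stood apart. Its values were more than 2-fold under the average of replicates 1 and 2 in 12 of 26 measured Wnt genes, against 14.6% of 11821 genes. With 3 arrays a group precision is limited throughout, and fewer cells of a type cannot be told apart from less RNA per cell.

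Of the 45 genes, 26 passed the limit and 19 lay below it. Higher levels in S100a10 arrays prevailed among those measured: 19 of 26 were higher at an adjusted p under 0.05 and 0 were lower, where 44.4% of all genes were higher and 4.5% lower. Besides, 20 of 26 had S100a10 values all above the Glt25d2 values (55.9% of all genes) and 1, Fzd4, the reverse (7.9%). Of the 26, 7 had every Glt25d2 array under 50 (10.5% of all genes). These passed the limit only through the S100a10 group, so they could hardly fail to differ. Fzd2, Fzd6 and Fzd7 also passed only through that group, with Glt25d2 means of 43.5, 45.6 and 39.0. Among the 16 genes over 50 in Glt25d2 replicates 1 and 2, 9 were higher, Fzd2 included, against 37.7% of all such genes. At least 2-fold differences toward S100a10 were seen in 16 of 26 (24.1% of all genes) and toward Glt25d2 in 0 (1.04%), and of 39 tested probe sets 29 were higher (44.2%) and 0 lower (4.39%). Of the 39, 16 had every Glt25d2 array under 50, against 2624 of all 21291 tested probe sets. The median difference of the 26 was 1.74, beside 0.56 over all genes. For the 16 genes over 50 in Glt25d2 replicates 1 and 2 it was 1.12, beside 0.46 for all such genes. After quantile normalization these medians were 0.32 and -0.084, and without Glt25d2 replicate 3 as well 0.069 and -0.098.

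These counts moved with the scale and with Glt25d2 replicate 3. After quantile normalization 13 of the 26 were higher and 2 lower, against 18.4% and 18.4% of all genes; after centring these were also 13 and 2, against 16.4% and 31.3%. Without Glt25d2 replicate 3, 19 were higher and 3 lower (55.0% and 6.13% of all genes), and with quantile normalization as well 15 and 4 (23.7% and 23.0%). In all 5 of these fits 13 genes were higher, against 15.0% of all genes. Of the 13, however, Wnt5b, Wnt6, Wnt11, Fzd2, Fzd5, Fzd7, Rspo1 and Sfrp4 passed the limit only through the S100a10 group. Among the 16 genes over 50 in Glt25d2 replicates 1 and 2, 6 were higher in all 5 fits, Fzd2 included, against 8.55% of all such genes. The 13 were the ligands Wnt4, Wnt5a, Wnt5b, Wnt6, Wnt9a and Wnt11, the receptors Fzd1, Fzd2, Fzd5 and Fzd7, and the modulators Rspo1, Sfrp1 and Sfrp4.

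**Figure D1:**
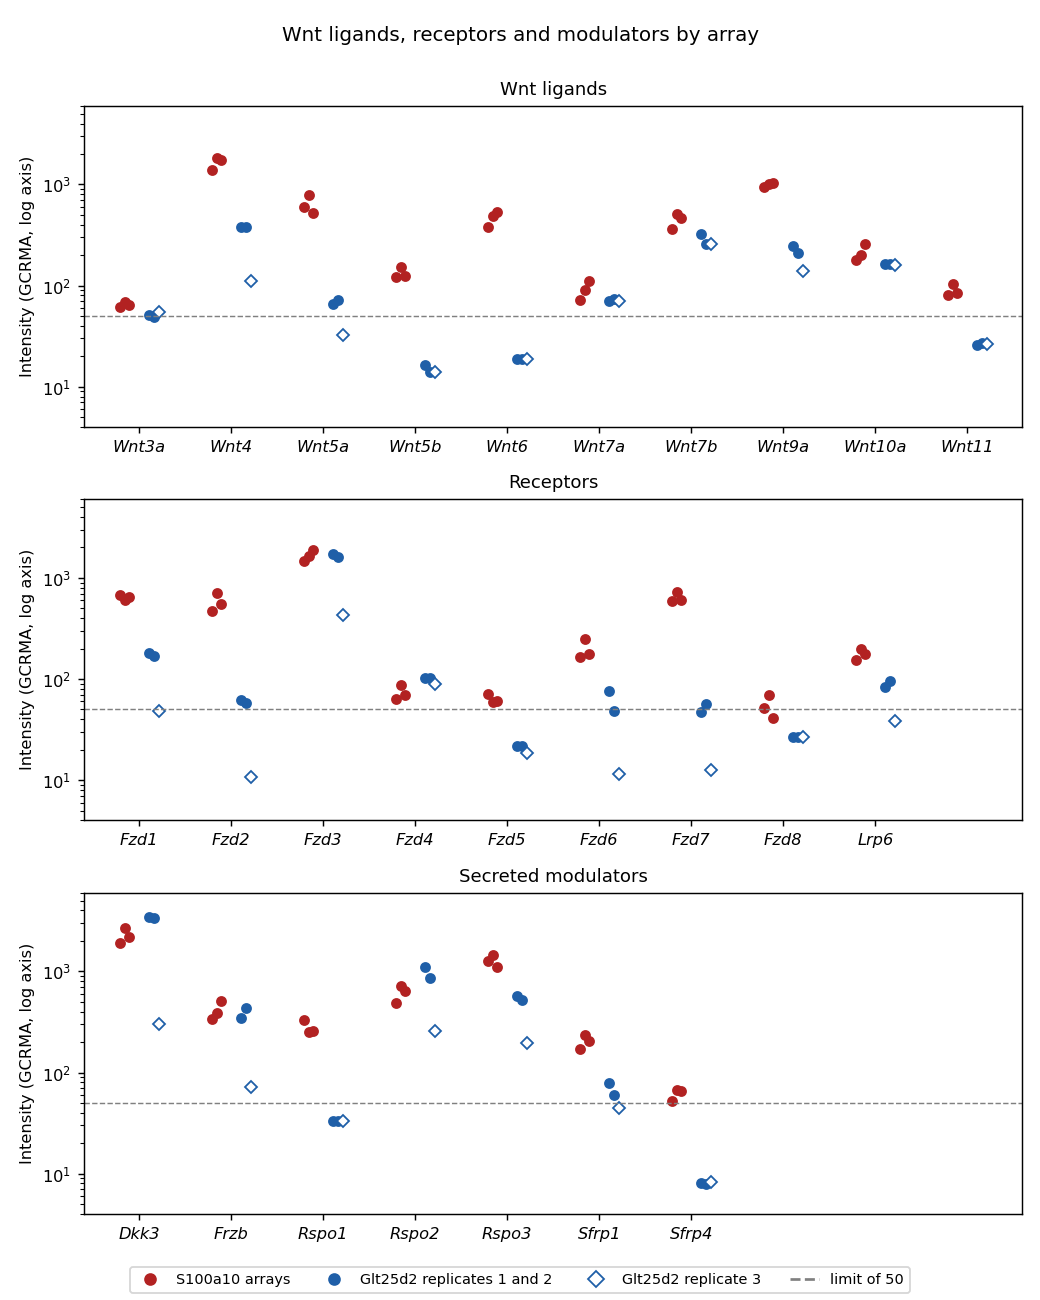
Deposited intensity on a log axis of the 26 measured Wnt genes in each array, with the 3 S100a10 arrays left of the 3 Glt25d2 arrays for each gene and the limit of 50 as a dashed line. Wnt6, Fzd7 and Rspo1 stand far apart between the groups, and the open diamonds of Glt25d2 replicate 3 lie below the other Glt25d2 arrays for genes such as Dkk3 (301) and Fzd2 (10.7).

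Among the ligands, 8 of the 10 measured genes were higher in S100a10 arrays (44.4% of all genes) and 6 of them by at least 2-fold (24.1%), with 6 higher and 1 lower after quantile normalization (18.4% each way). Of the 8, Wnt5b, Wnt6 and Wnt11 passed the limit only through the S100a10 group. Wnt6, a ligand known from surface epithelia of the embryo, had intensities of 378, 493 and 535 in S100a10 arrays, against 18.8, 18.8 and 18.8 in Glt25d2 arrays. All Glt25d2 arrays lay under 50, so S100a10 cells exceeded Glt25d2 cells at least 9.27-fold (468 ± 81.1 against 18.8 ± 0, n = 3 each with SD, adjusted p = 1.39e-05 by limma). A bound of this kind sets the mean of the log2 values in S100a10 arrays against 50 and holds for the deposited scale only. Here and below, an adjusted p printed beside a bound is that of the log2 difference in the fit, not of the bound. The middle array medians of the groups stood at a ratio of 1.69, so the smaller bounds, among them those of Fzd5, Fzd8, Sfrp4 and Rnf43 below, do not by themselves show a difference on a common scale. The Glt25d2 values of Wnt6 were identical in the table, which understates their spread. At least 2 of the 3 Glt25d2 arrays held the same value in 8 of the 26 genes and in 15 of their 39 tested probe sets, against 23.4% of all tested probe sets; among S100a10 arrays this was so for 0 of the 26. The second tested probe set of Wnt6 also had Glt25d2 values all under 50, at a bound of 4.42-fold; the suffix of its name marks probes that may also bind other messengers.

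Wnt5a and Wnt5b are close relatives that mostly signal without beta-catenin. Wnt5a had intensities of 593, 789 and 519 in S100a10 arrays, against 65.6, 72.6 and 32.5 in Glt25d2 arrays, a log2 difference of 3.54 (SE 0.35, adjusted p = 6.02e-04 by limma). The groups lay far apart, and without Glt25d2 replicate 3, the lowest array, the difference was 3.18. The other 2 tested probe sets of Wnt5a gave bounds of 2.82-fold and 2.62-fold in the same direction. Wnt5b had 121, 154 and 126 in S100a10 arrays, against 16.6, 13.9 and 13.9 in Glt25d2 arrays, with a bound of 2.65-fold toward S100a10 cells (adjusted p = 3.68e-05 by limma). Both of its tested probe sets rose, the other with a bound of 1.43-fold. Wnt11, another ligand of the polarity route, had 81.6, 105 and 83.6 in S100a10 arrays, against 25.6, 27.1 and 26.3 in Glt25d2 arrays, and was at least 1.79-fold higher (adjusted p = 1.97e-04 by limma).

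Wnt4 and Wnt9a were well above 50 in the Glt25d2 arrays too. Wnt4, known from kidney and gonad formation, had intensities of 1389.8, 1822 and 1750.5 in S100a10 arrays, against 378, 381 and 111 in Glt25d2 arrays. The difference was 2.70 (SE 0.51, adjusted p = 0.0072 by limma) and 2.11 without Glt25d2 replicate 3, which lay 3.41-fold under the average of replicates 1 and 2. Its other tested probe set rose by 2.14. Wnt9a, known from joint formation, had 945, 1005 and 1032 in S100a10 arrays, against 244, 209 and 139 in Glt25d2 arrays. The difference was 2.37 (SE 0.22, adjusted p = 4.86e-04 by limma), and the groups did not overlap.

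The other ligands differed little, and their direction depended on the scale. Wnt7b, which with Wnt7a instructs brain endothelium, had 364, 512 and 467 in S100a10 arrays, against 321, 256 and 260.2 in Glt25d2 arrays. Its difference of 0.68 (SE 0.17, adjusted p = 0.0215 by limma) passed, but was -0.018 after quantile normalization and did not pass without S100a10 replicate 2 or 3 or Glt25d2 replicate 2. Wnt7a had 72.4, 90.8 and 109.9 in S100a10 arrays, against 69.7, 73.9 and 69.7 in Glt25d2 arrays, and did not pass with a difference of 0.34 (SE 0.17, adjusted p = 0.153 by limma); it passed without S100a10 replicate 1, at 0.49. These values of the paired ligands overlap for Wnt7a and only just separate for Wnt7b. Wnt3a, a strong activator of beta-catenin, had 62.0, 68.5 and 64.6 in S100a10 arrays, against 51.2, 49.1 and 54.3 in Glt25d2 arrays. Its difference of 0.34 (SE 0.098, adjusted p = 0.0334 by limma) passed as deposited and turned to -0.60 after quantile normalization, past the threshold the other way (adjusted p = 0.0223 by limma). It did not pass without S100a10 replicate 2 or 3 or Glt25d2 replicate 1 or 2. Wnt10a had 179.6, 201 and 256 in S100a10 arrays, against 162, 162 and 159.8 in Glt25d2 arrays, and did not pass (0.38, SE 0.15, adjusted p = 0.085 by limma); after quantile normalization it was -0.43.

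Among protein-coding genes of the RefSeq table, 4 pairs of Wnt genes are direct neighbours, and in 2 of them both were measured. Wnt6 and Wnt10a, neighbours on chromosome 1, differed by at least 9.27-fold and by a log2 value of 0.38. Wnt9a and Wnt3a, neighbours on chromosome 11 that are read in opposite directions, differed by 2.37 and 0.34. In each pair 1 gene was higher in all 5 fits and its neighbour was not; the difference between neighbours was itself not tested. The other pairs, Wnt3 with Wnt9b and Wnt1 with Wnt10b, lay under the limit.

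Of the 8 Frizzled genes measured 6 were higher in S100a10 arrays (44.4% of all genes), with 4 higher and 1 lower after quantile normalization (18.4% each way). Of the 6, all but Fzd1 passed the limit only through the S100a10 group, their Glt25d2 means lying under 50. Fzd1, Fzd2 and Fzd7 form 1 subfamily of related receptors. Fzd7 had intensities of 585, 722 and 601 in S100a10 arrays, against 47.5, 57.0 and 12.6 in Glt25d2 arrays. The difference was 4.29 (SE 0.59, adjusted p = 0.0021 by limma), 3.61 without Glt25d2 replicate 3, and 2.86 with quantile normalization as well. Fzd2 had 469, 703 and 551 in S100a10 arrays, against 61.9, 57.8 and 10.7 in Glt25d2 arrays, with differences of 4.07 (SE 0.71, adjusted p = 0.00538 by limma), 3.24 and 2.49 in the same 3 fits. Its other 2 tested probe sets lay under 50 in every Glt25d2 array and gave bounds of 5.41-fold and 5.42-fold. The S100a10 arrays thus stood above the Glt25d2 arrays at each of the 3 probe sets of Fzd2. Fzd1 had 675, 611 and 651 in S100a10 arrays, against 179, 169 and 48.4 in Glt25d2 arrays, with differences of 2.51 (SE 0.52, adjusted p = 0.0104 by limma), 1.89 and 1.22.

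Fzd5 and Fzd8 are a second pair of related receptors, both low. Fzd5 had 71.9, 59.7 and 60.4 in S100a10 arrays, against 21.5, 21.5 and 18.8 in Glt25d2 arrays, and was at least 1.27-fold higher (adjusted p = 2.25e-04 by limma). With values under 50 set to 50 its log2 difference was 0.35 (adjusted p = 0.0388 by limma). Fzd8 had 51.3, 69.3 and 40.9 in S100a10 arrays, against 26.7, 26.7 and 26.7 in Glt25d2 arrays, and was at least 1.05-fold higher (adjusted p = 0.0102 by limma), with 1 S100a10 array under 50. Fzd8 did not pass after quantile normalization or with values under 50 set to 50. Fzd5 and Fzd8 lay so close to the limit that the bounds say little about the size of the difference.

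Fzd3 and Fzd6, a pair known from axon guidance and from the polarity of skin and hair, split at the threshold. Fzd6 had 166, 249.5 and 178 in S100a10 arrays, against 76.4, 48.9 and 11.6 in Glt25d2 arrays, a difference of 2.47 (SE 0.71, adjusted p = 0.0314 by limma), or 1.67 without Glt25d2 replicate 3. It did not pass with any S100a10 array left out, without Glt25d2 replicate 2, or after quantile normalization. Fzd3 had 1457, 1637 and 1875 in S100a10 arrays, against 1723, 1603 and 434 in Glt25d2 arrays, and did not pass (0.63, SE 0.55, adjusted p = 0.377 by limma). Apart from Glt25d2 replicate 3 the arrays of the groups overlap, and the difference was -0.013 without it. Its 3 tested probe sets disagreed, since 1 of them had 86.5, 90.9 and 54.5 in S100a10 arrays, against 9.02, 7.83 and 7.63 in Glt25d2 arrays, a bound of 1.51-fold (adjusted p = 1.60e-04 by limma). Whether Fzd3 and Fzd6 differ in their change was not tested.

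Fzd4, the receptor of norrin and of Wnt7 signals in blood vessels, was the only Wnt gene with Glt25d2 arrays all above the S100a10 arrays. It had 63.5, 86.4 and 69.7 in S100a10 arrays, against 103, 103 and 89.4 in Glt25d2 arrays, and its difference of -0.43 (SE 0.15, adjusted p = 0.0567 by limma) missed the threshold. It passed without Glt25d2 replicate 3 (-0.50), without S100a10 replicate 2 (-0.56), and after quantile normalization (-1.33). In the fit without Glt25d2 replicate 3, Fzd4 had identical values in the other Glt25d2 arrays, which understates their spread. Its second tested probe set went the other way, with 72.6, 67.6 and 62.4 in S100a10 arrays, against 41.0, 47.8 and 25.3 in Glt25d2 arrays (adjusted p = 0.032 by limma), and differed by -0.017 after quantile normalization. The direction of Fzd4 is therefore uncertain. The co-receptor gene Lrp6 had 154, 198 and 177 in S100a10 arrays, against 84.0, 96.6 and 38.9 in Glt25d2 arrays, a difference of 1.37 (SE 0.36, adjusted p = 0.0245 by limma) and of 0.96 without Glt25d2 replicate 3. The call for Lrp6 was lost with any S100a10 array left out and after quantile normalization (0.49), and its second probe set differed by 0.20 without passing. After quantile normalization that second probe set was lower in S100a10 arrays, at -0.72 (adjusted p = 0.0205 by limma). The direction of Lrp6 is therefore uncertain too.

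**Figure D2:**
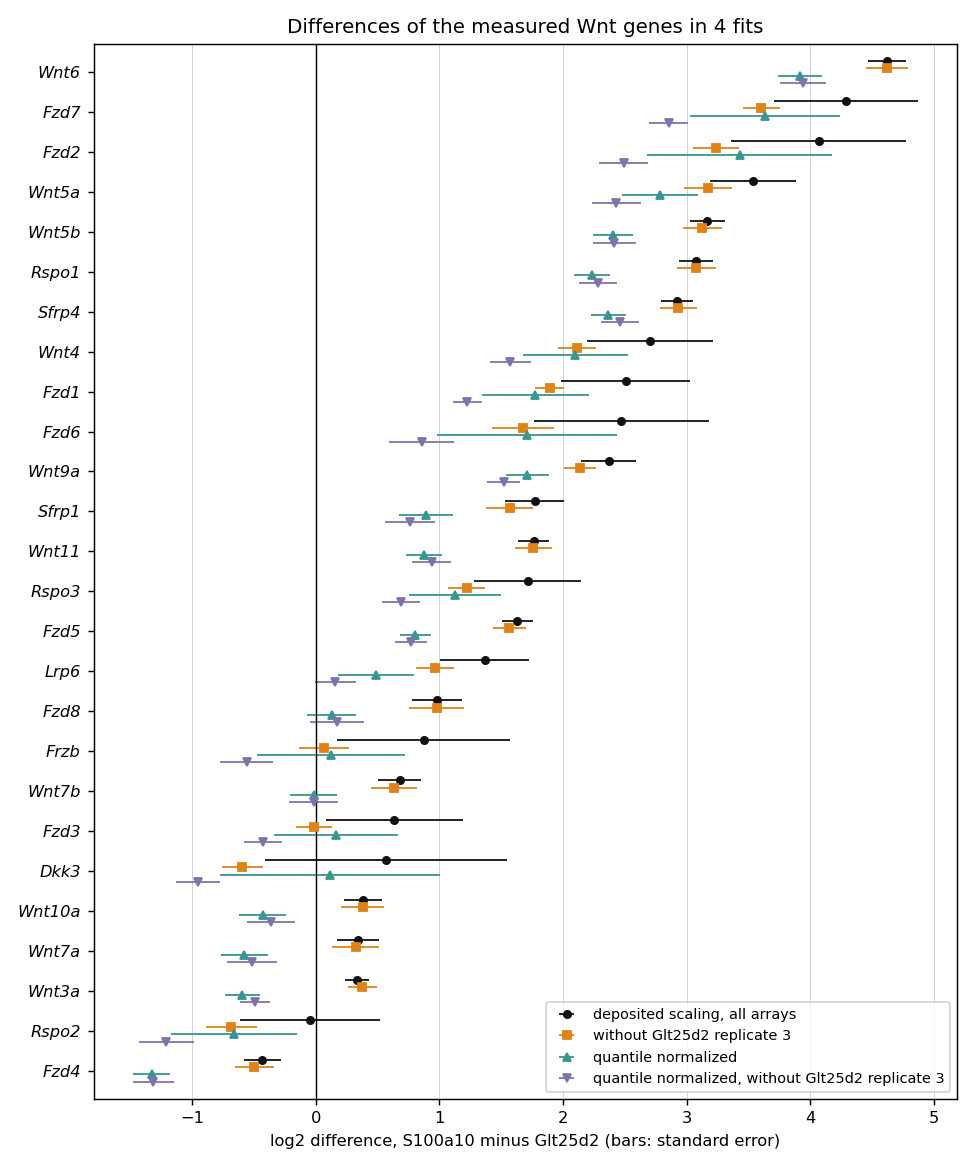
Log2 difference of S100a10 minus Glt25d2 (x axis, bars are standard errors) for the 26 measured Wnt genes in 4 fits. With all arrays Fzd7 stands at 4.29, Fzd2 at 4.07 and Wnt6, whose Glt25d2 values all lay under 50, at 4.62; Dkk3 crosses 0 when Glt25d2 replicate 3 is left out (-0.60), and Wnt3a after quantile normalization (-0.60).

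Of the 7 secreted modulators measured 4 were higher in S100a10 arrays (44.4% of all genes), and Rspo1 and Sfrp4 of these passed the limit only through the S100a10 group. Both measured genes of secreted Frizzled-related proteins, which bind Wnt ligands, were among the 4. Sfrp1 had 172, 236 and 206 in S100a10 arrays, against 78.5, 59.6 and 44.8 in Glt25d2 arrays, a difference of 1.77 (SE 0.24, adjusted p = 0.00203 by limma). Its second tested probe set had 147, 162 and 152 in S100a10 arrays, against 12.2, 12.2 and 12.2 in Glt25d2 arrays, a bound of 3.07-fold. Sfrp4 was low in both groups, with 52.3, 67.1 and 65.3 in S100a10 arrays, against 8.10, 7.93 and 8.19 in Glt25d2 arrays, with a bound of 1.22-fold toward S100a10 cells (adjusted p = 3.34e-05 by limma). Sfrp4 no longer passed with values under 50 set to 50 (adjusted p = 0.102 by limma).

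Of the 3 R-spondin genes measured, whose proteins strengthen Wnt signals, 2 were higher in S100a10 arrays. Rspo1 had 333, 249 and 259.6 in S100a10 arrays, against 33.0, 33.0 and 33.0 in Glt25d2 arrays, and the groups were clearly apart. Rspo1 differed by 2.23 after quantile normalization and 2.31 after centring, which as folds lie under its bound of 5.56-fold (adjusted p = 3.60e-05 by limma). Rspo3, known from blood vessel growth, had 1279, 1442 and 1116 in S100a10 arrays, against 575, 518 and 195 in Glt25d2 arrays, a difference of 1.72 (SE 0.43, adjusted p = 0.0207 by limma), or 1.22 without Glt25d2 replicate 3. Rspo3 did not pass with any S100a10 array left out or after quantile normalization (1.13, adjusted p = 0.0591 by limma). Rspo2 had 486, 720.3 and 638 in S100a10 arrays, against 1117, 853 and 258 in Glt25d2 arrays, and did not pass (-0.046, SE 0.57, adjusted p = 0.951 by limma). Glt25d2 replicate 3 lay below every S100a10 array and the other 2 Glt25d2 arrays above them, and without that replicate Rspo2 was lower in S100a10 arrays, at -0.69 (adjusted p = 0.0266 by limma).

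Dkk3, the Dickkopf relative that is abundant in cortical neurons and hardly acts on Wnt co-receptors, and Frzb rested on the same array. Dkk3 had 1917, 2679.5 and 2190.4 in S100a10 arrays, against 3419, 3360.1 and 301 in Glt25d2 arrays, and did not pass (0.57, SE 0.98, adjusted p = 0.653 by limma). The value in Glt25d2 replicate 3 was 11.3-fold under the average of replicates 1 and 2, and without it Dkk3 was lower in S100a10 arrays, at -0.60 (adjusted p = 0.0188 by limma). The second probe set of Dkk3 differed by 1.63 with all arrays and by 0.40 without that replicate, and passed in neither fit. Frzb, also a Wnt-binding protein, had 339, 392 and 508 in S100a10 arrays, against 347, 437 and 72.2 in Glt25d2 arrays. It did not pass with all arrays (0.87, SE 0.70, adjusted p = 0.341 by limma) or without Glt25d2 replicate 3 (0.063).

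The genes that were low in that replicate were mostly receptors and modulators. It lay over 2-fold under the average of replicates 1 and 2 for 5 of 8 Frizzled genes, for Lrp6, for 4 of 7 modulators and for 2 of 10 ligands. Every Glt25d2 array lay under 50 for 3 of the 10 ligands, 2 of the 8 Frizzled genes and 2 of the 7 modulators. In such genes a low replicate 3 could hardly show. Among the 16 genes over 50 in both other Glt25d2 arrays the median ratio of those arrays to replicate 3 was 2.56, beside 0.933 for all such genes. The ligands over 2-fold low in replicate 3 were Wnt4 and Wnt5a, and no cause was tested.

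**Figure D3:**
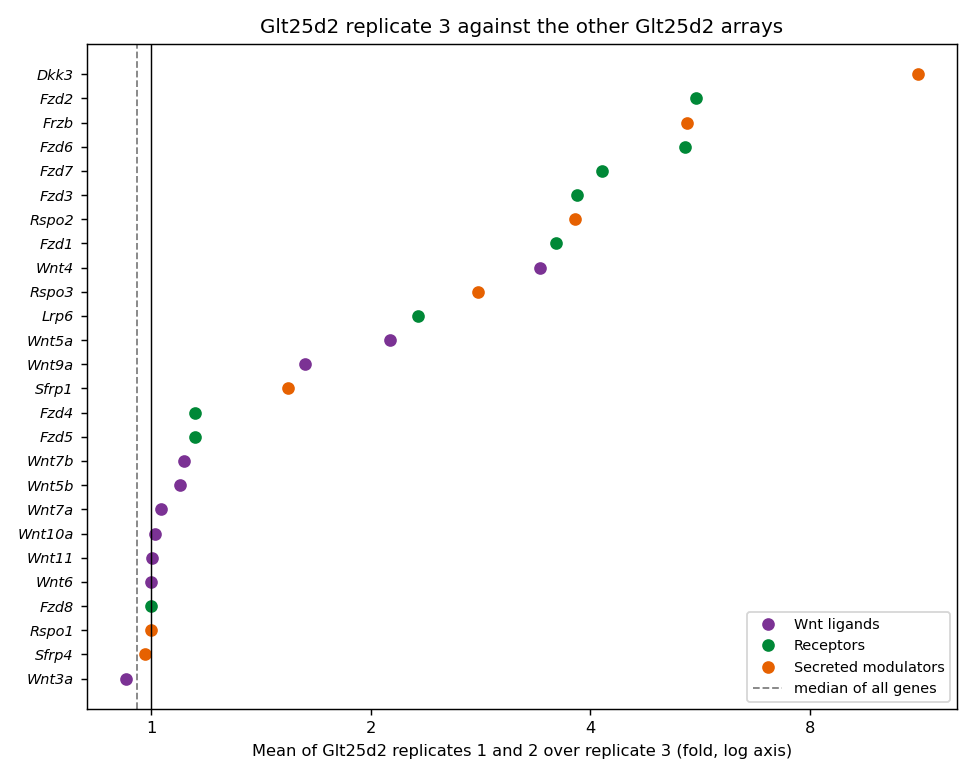
Mean of Glt25d2 replicates 1 and 2 over replicate 3 (fold, log axis) for the 26 measured Wnt genes, coloured by role, with the median of all genes as a dashed line. Dkk3 leads at 11.3, followed by Fzd2 at 5.59, while most ligands lie near 1, such as Wnt6 at 1 and Wnt7b at 1.11. The ratio of Wnt6 comes from identical values under 50, where a low replicate 3 could hardly show.

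The 19 genes below the limit were the ligands Wnt1, Wnt2, Wnt2b, Wnt3, Wnt8a, Wnt8b, Wnt9b, Wnt10b and Wnt16, the receptors Fzd9, Fzd10 and Lrp5, and the modulators Dkk1, Dkk2, Dkk4, Rspo4, Sfrp2, Sfrp5 and Wif1. Their highest value in any array was 48.6 among S100a10 arrays (Fzd10) and 38.6 among Glt25d2 arrays (Wnt2). Without the limit, 26 of the 45 genes were called higher and 7 lower, against 46.3% and 9.58% of all genes. Differences at such values cannot be read as levels of these messengers.

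Other genes of the pathway were taken from 3 lists with 59 measured members, of which 32 were higher and 0 lower in S100a10 arrays (44.4% and 4.5% of all genes). After quantile normalization 15 were higher and 6 lower (18.4% and 18.4%), and these shares of all genes also stand behind the counts of each list below. The outer list holds genes for secretion of Wnt proteins, co-receptors, receptor turnover and modulators besides those above; 10 of 18 measured were higher (44.4%), 5 of them with every Glt25d2 array under 50, and after quantile normalization 8 were higher and 2 lower (18.4% each). The median of the outer list was 2.33 beside 0.56 for all genes, and 1.64 beside -0.018 after quantile normalization. Without Glt25d2 replicate 3 it was 1.36 beside 0.51 for all genes, and with quantile normalization as well 0.62 beside -0.032. Adgra2 and Reck, whose proteins together let endothelial cells sense Wnt7, were both higher. Adgra2 had 161, 183 and 173 in S100a10 arrays, against 4.07, 3.99 and 4.07 in Glt25d2 arrays, a bound of 3.44-fold (adjusted p = 5.83e-06 by limma). Reck had 404, 587 and 529 in S100a10 arrays, against 60.5, 52.9 and 29.0 in Glt25d2 arrays, a difference of 3.47 (SE 0.31, adjusted p = 4.46e-04 by limma). With a Glt25d2 mean of 47.5, Reck passed the limit only through the S100a10 group. Notum, an enzyme that strips the lipid from Wnt proteins, was at least 2.51-fold higher (126 ± 14.2 in S100a10 arrays against 5.09 ± 0.0913 in Glt25d2 arrays, n = 3 each with SD), and Rnf43, which removes Frizzled from the surface, at least 1.52-fold.

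The inner list holds the beta-catenin route inside the cell. Of 31 measured genes 18 were higher and 0 lower (44.4% and 4.5% of all genes), the median was 0.59 beside 0.56 of all genes, and after quantile normalization 6 were higher and 4 lower (18.4% each). Of the 18, 3 had every Glt25d2 array under 50. Tcf7l1, a TCF factor that mostly represses targets, had 650.2, 659 and 397 in S100a10 arrays, against 42.3, 39.5 and 55.7 in Glt25d2 arrays, a difference of 3.61 (SE 0.25, adjusted p = 1.65e-04 by limma). With a Glt25d2 mean of 45.8, Tcf7l1 passed the limit only through the S100a10 group. Tcf7l2, another TCF factor, and Tle2, a co-repressor, had bounds of 2.37-fold and 3.15-fold, above their folds after quantile normalization (log2 0.60 and 1.09), and Csnk1g2, a casein kinase, rose by 1.60 (SE 0.14). Of 10 measured genes of planar polarity 4 were higher and 0 lower (44.4% and 4.5% of all genes), with 1 higher and 0 lower after quantile normalization (18.4% each). Of the 4, 2 had every Glt25d2 array under 50. Vangl1, a membrane protein of that route, had a bound of 2.50-fold, above its fold after quantile normalization (log2 1.20; adjusted p = 3.80e-05 by limma).

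Of 12 measured target and feedback genes of beta-catenin, 6 of which also stand in the lists above, 7 were higher and 1 lower (44.4% and 4.5% of all genes), with 6 and 2 after quantile normalization (18.4% each). Of the 7, 4 had every Glt25d2 array under 50. Nkd1, a feedback inhibitor, had 479, 439.6 and 301 in S100a10 arrays, against 58.2, 49.0 and 61.8 in Glt25d2 arrays, a difference of 2.83 (SE 0.21, adjusted p = 2.07e-04 by limma). Sp5, a transcription factor induced by Wnt signals, was at least 1.70-fold higher (117, 88.1 and 60.0 in S100a10 arrays against 11.5, 11.5 and 11.5 in Glt25d2 arrays), and Notum and Rnf43 of this list are given above. Ccnd1, cyclin D1, was the gene that fell, with 174, 130.1 and 130.3 in S100a10 arrays, against 389, 467 and 554 in Glt25d2 arrays, a difference of -1.70 (SE 0.19, adjusted p = 9.58e-04 by limma); it is named after its value was seen. Axin2, the feedback scaffold often used as a readout, rose by 1.10 (SE 0.14, adjusted p = 0.00148 by limma) and did not pass after quantile normalization (0.44); beta-catenin itself, Ctnnb1 of the inner list, differed by 0.054 without passing. Both are named for their role, outside the rule. The list thus held genes that moved in both directions, and its median was 1.91, or 1.44 without Glt25d2 replicate 3.

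**Figure D4:**
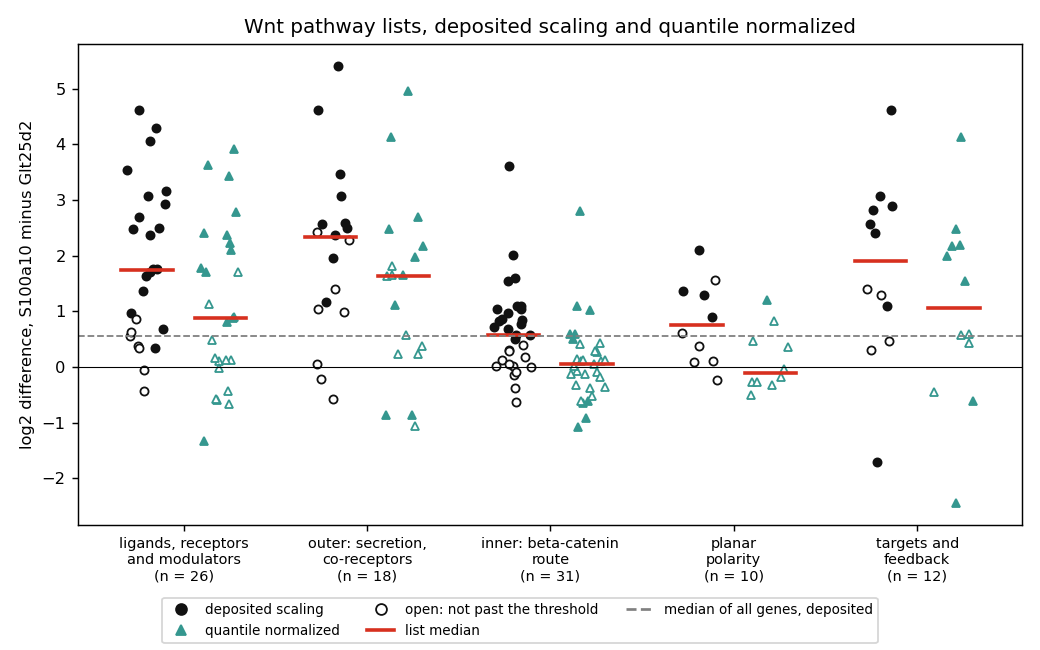
Log2 difference of S100a10 minus Glt25d2 for the measured Wnt ligands, receptors and modulators and for 4 lists of other pathway genes, as deposited (circles) and after quantile normalization (triangles); filled symbols passed the threshold and red bars are medians. The inner list has its median at 0.59, near the dashed median of all genes at 0.56, the outer list at 2.33 (1.36 without Glt25d2 replicate 3) and the targets at 1.91 (1.44).

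Markers of other cell types differed between the same arrays, and their part in these results was not tested. Of all genes 44.4% were higher and 4.5% lower, and 18.4% each way after quantile normalization. These shares stand behind the counts of each marker list. All 7 measured fibroblast genes were higher in S100a10 arrays, with summed intensities of 11049 to 14072 in S100a10 arrays, against 97.0 to 209 in Glt25d2 arrays. All 7 were also higher after quantile normalization. Of the 7, 6 had every Glt25d2 array under 50. These passed the limit only through the S100a10 group and could hardly fail to differ. Col1a1 did not pass the limit. Ogn, which encodes osteoglycin, had 4992, 6543 and 5871 in S100a10 arrays, against 17.0, 32.9 and 10.9 in Glt25d2 arrays. Of 5 mural genes 3 were higher and 1 lower (3624 to 4449 against 645 to 818), with Abcc9, Kcnj8 and Notch3 under 50 in every array. Of the 3 higher, 2 had every Glt25d2 array under 50, and after quantile normalization 3 were higher and 2 lower. All 4 measured choroid plexus genes were higher (1607 to 1837 against 103 to 109), with Folr1 under 50 throughout. Kl did not pass the limit either. Of the 4, 3 had every Glt25d2 array under 50, and only 2 were higher after quantile normalization. Clic6 then differed by -0.38. Ttr rested on 1 array, with 36.9, 45.2 and 261 in S100a10 arrays. Of 3 endothelial genes 0 were higher and 1 lower (168 to 184 against 229.7 to 996), with Cdh5, Flt1, Kdr and Pecam1 under 50 throughout. Tek did not pass the limit either. All 3 were lower without Glt25d2 replicate 3, and also after quantile normalization or centring. Slco1c1, a transporter of brain endothelium, had 50.0, 55.9 and 58.2 in S100a10 arrays, against 433, 538 and 69.8 in Glt25d2 arrays. Of 7 astrocyte genes 2 were higher and 2 lower (16957 to 22534 against 9350.5 to 16424), of 5 oligodendrocyte genes 0 and 2 (8981 to 15327 against 17393 to 23576), and of 4 microglial genes 1 and 0 (504 to 798 against 292 to 470.4), with P2ry12 and Itgam under 50 throughout. The astrocyte, oligodendrocyte and microglial counts were the same after quantile normalization. The 1 microglial gene called, Tmem119, had every Glt25d2 array under 50. Pyramidal neuron genes were present in both groups, with 2 of 7 higher and 3 lower (15493 to 16817 against 23869.9 to 27964), as were interneuron genes, with 3 and 1 of 7 (15290.5 to 18718 against 12032 to 17844). After quantile normalization 2 pyramidal neuron genes were higher and 4 lower, and 3 interneuron genes were higher and 1 lower.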

How the data were processed

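RNA from ribosome pulldowns was amplified in 2 cycles from 15 ng and hybridised to Affymetrix arrays, per the labels' protocols. As deposited, the table holds linear intensities made with GCRMA, per the submitters' processing notes. The method usually corrects background by probe sequence, equalises quantiles and applies median polish; its version, and whether both groups were normalized together, is not stated in the sources used here. Replicates are called averaged in the series text, yet 6 separate columns are present. Of 45101 probe sets 64 controls were left out; 34945 name 1 gene. The log2 of each value, with no pseudocount added, entered limma 3.58.1 (R 4.3.3, lmFit, eBayes) for the 21291 probe sets with a group mean of at least 50 (2-sided, Benjamini-Hochberg over all 21291, threshold 0.05), a step tested on simulated data. A gene count uses 1 probe set per gene. Fold bounds set the mean log2 value of the brighter group against 50 and have no p-value of their own. All measured Wnt genes are named, with up to 4 genes of each pathway list that differed most among those called alike after quantile normalization. The members, lists and alternatives were chosen with earlier results of these data known. Alternatives were quantile normalization, centring on medians, no filter, a floor of 50, a pseudocount of 16, a trended prior, the replicate block, 1 probe set per gene in the adjustment, the mean of probe sets, each array left out, and quantile normalization without Glt25d2 replicate 3. Replicate numbers were not used as pairs. P-values set the difference of the groups against the spread between replicates, which identical Glt25d2 values understate. Python 3.11.15 drew the plots.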

Additional observations from a re-analysis of the deposited data

How the results depend on the processing

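Of 624 alternative values for the single genes named, 560 kept their direction and side of the threshold, 31 lost the call, 10 gained it and 23 changed sign. The 19 Wnt genes higher in S100a10 arrays numbered between 13 and 26 over the alternatives and between 14 and 19 with 1 array left out. The count of 26 came without a filter, where 45 genes were tested. The 29 probe sets higher numbered 49 without a filter, where 85 were tested, and 23 to 29 with 1 array left out. Genes lower, 0 with all arrays, numbered 7 without a filter, 2 after quantile normalization and after centring, 4 after quantile normalization without Glt25d2 replicate 3, and 0 to 3 with 1 array left out; probe sets lower, also 0, numbered 10, 3, 3, 5 and 0 to 3 in these fits. The 32 other pathway genes higher numbered 15 after quantile normalization or centring, 20 after quantile normalization without Glt25d2 replicate 3 and 25 to 36 with 1 array left out. Those lower, 0, numbered 6, 14, 8 and 0 to 2 in these fits and 1 with the mean of probe sets. Target genes higher, 7, numbered 6 to 8 with 1 array left out, and those lower, 1, numbered 2 after quantile normalization with or without that replicate and 1 with any array left out. The cause of these shifts was not tested. Deviations of same-numbered arrays from their group means had correlations of -0.45, 0.22 and -0.24. Deviations from a mean of 3 arrays are tied to each other, so these values cannot show whether the numbers pair the samples. With the replicate block 17 Wnt genes were higher and 0 lower.

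Sign changes, in the order quantile normalization, centring, and quantile normalization without Glt25d2 replicate 3, were -0.60, -0.43 and -0.49 for Wnt3a, -0.58, -0.43 and -0.52 for Wnt7a, -0.018, -0.091 and -0.018 for Wnt7b, and -0.43, -0.39 and -0.36 for Wnt10a. In the last of these fits Frzb was -0.56, Dkk3 -0.96 and Fzd3 -0.43; after centring Dkk3 was -0.20 and Fzd3 -0.13. Fzd4 was 0.22 with the mean of its probe sets. With 1 array left out Dkk3 ran between -0.60 and 1.16, Fzd3 between -0.013 and 0.98, and Rspo2 between -0.69 and 0.37. Signal close to background limits the genes with Glt25d2 values under 50.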
